A study of Mus musculus with 12 samples.

Results

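The genes described here are 36 mouse genes of mitosis and DNA replication, taken by name from a fixed list and looked up by exact symbol in the deposited tables. All 36 were in the microglia table of 29957 named genes, and 27 were in the hippocampus table of 14663 named genes; the other 9 (Cdc20, Ccnb1, Cdk1, Bub1, Aurkb, Plk1, Kif11, Kif23 and Ube2c) were not analysed in the hippocampus. RNA was sequenced from C57BL/6 mice in 4 groups of 3 libraries: microglia of the hippocampus at 24 and 3 months of age, and whole hippocampus at 18 and 6 months. Microglia are the brain's own macrophages. The labels name no genotype and no treatment other than age. How the microglia were isolated, and whether a library is a single mouse or a pool, is not given in the sources used here, so a p-value here reflects variation among libraries, which may be technical.

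A dividing cell copies its DNA in S phase and separates the copies in mitosis. The MCM2-7 helicase is loaded on origins in G1 and unwinds DNA, the clamp PCNA holds the polymerases on it, and ribonucleotide reductase and thymidylate synthase supply nucleotides. Cyclins E, A and B then switch on the kinases CDK2 and CDK1 in turn, and the anaphase-promoting complex ends mitosis by marking cyclin B for destruction. Resting adult microglia divide rarely, while in the hippocampus precursors of the dentate gyrus and of oligodendrocytes keep dividing in adult life. Several replication proteins, PCNA and the MCM subunits among them, are also made or used outside S phase, for example in DNA repair.

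Estimated counts totalled 8072855 to 14226478 per microglia library, over 11791 to 13839 detected genes. Levels are given as CPM, counts relative to a library size that was scaled by edgeR's TMM factors. At least 1 count was found for 28, 31 and 29 of the 36 members in 24 month replicates 1, 2 and 3, against 21, 29 and 23 members in 3 month replicates 1, 2 and 3. Detection was patchy: 14 members had at most 1 count in a library and at least 50 counts in another library of the same age. Among genes that passed the filter on low counts (edgeR's filterByExpr), 9 of 25 members and 19.1% of all 10663 genes showed that pattern. Markers of microglia were detected at high levels in each library. The chemokine receptor gene Cx3cr1 was at 5362 to 6974 CPM at 24 months and at 5952 to 7580 CPM at 3 months. The purine receptor gene P2ry12 was at 2946 to 3636 CPM at 24 months and at 2986 to 3576 CPM at 3 months. Both overlapped between the ages, while some other markers were lower in each 24 month library. Csf1r, the receptor for the survival factor of microglia, was at 7834, 8391 and 10439 CPM at 24 months, against 13334, 12777 and 12210 CPM at 3 months. Tmem119 was at 5069, 5121 and 8012 CPM at 24 months, against 9236, 8824 and 8329 CPM at 3 months, and Fcrls at 3516, 2855 and 3660 CPM, against 4251, 4971 and 4822 CPM. Sall1 was at 329.8, 247.2 and 341.3 CPM at 24 months, against 506.9, 377.5 and 383.8 CPM at 3 months. Csf1r, Tmem119, Fcrls and Sall1 did not overlap between the ages, and their part in the members' values was not tested.

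The 23 mitotic members together were at a higher level in old microglia, mostly in a single library, and the 13 replication and G1/S members were not. Mitotic transcripts summed to 381.7, 168.4 and 74.9 CPM in 24 month replicates 1, 2 and 3, against 25.9, 78.2 and 35.95 CPM in 3 month replicates 1, 2 and 3. The lowest old library lay below the highest young library, so the groups overlapped. The mean sum was 208.4 ± 157.3 CPM in old and 46.7 ± 27.7 CPM in young microglia (SD, n = 3 each), a ratio of 4.46. Leaving out 24 month replicate 1 gave a ratio of 2.61, and leaving out 3 month replicate 2 gave 6.74. Replication and G1/S transcripts summed to 453.8, 422.8 and 372.9 CPM at 24 months and to 450.7, 426.2 and 454.8 CPM at 3 months, a ratio of 0.938.

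**Figure D1:**
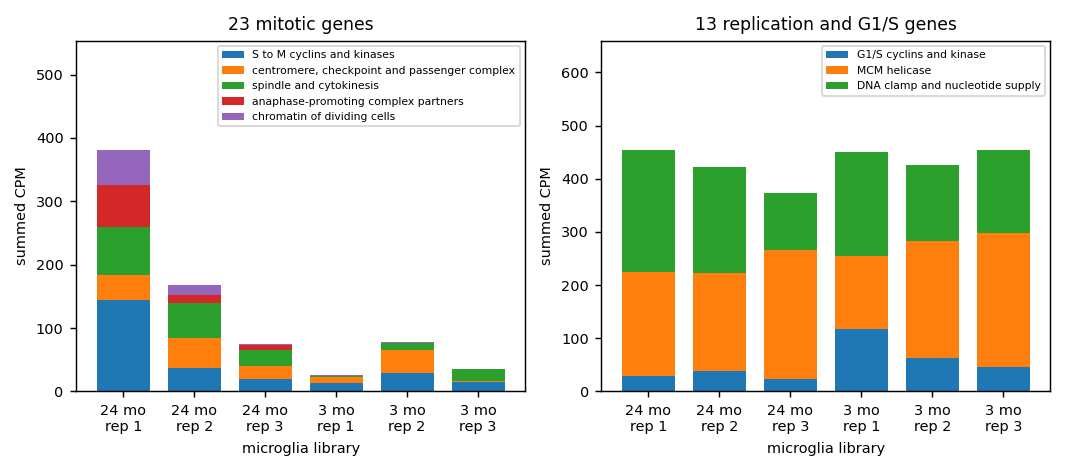
Summed CPM of the 23 mitotic members (left) and the 13 replication and G1/S members (right) in the 6 microglia libraries, stacked by role. The mitotic sum is 381.7 CPM in 24 month replicate 1 and 25.9 to 168.4 CPM in the other libraries, while the replication sum stays between 372.9 and 454.8 CPM in all 6.

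In bulk RNA, fewer cells of a type and less RNA per cell cannot be told apart. The library with the highest mitotic sum also held transcripts of marker genes of other cells. The 13 neutrophil and monocyte markers, of which 2 were at 0 in every library, summed to 2731, 51.3 and 3.70 CPM in 24 month replicates 1, 2 and 3 and to 6.27, 9.73 and 1.97 CPM at 3 months. In 24 month replicate 1 most of this sum came from S100a8 with 12179 counts and S100a9 with 3016. The rest was mostly granule protein genes of neutrophils, Ngp with 4639 counts, Ltf with 3196 and Camp with 2705. Of the other markers there, Retnlg had 60 counts, Ccr2 5 and Ly6c2 1, and Ly6g, Mmp8 and Plac8 had 0. Elane, a granule enzyme of early neutrophil precursors, had 0 counts in every library. Mpo, another, had 5 counts in 24 month replicate 2 and 0 elsewhere. The stage of any such cells was not tested. The 7 mural and smooth muscle markers, 2 of them at 0 throughout, summed to 294.5, 38.8 and 0.760 CPM at 24 months and to 0.299 to 0.873 CPM at 3 months. The 10 endothelial markers summed to 52.3, 143.9 and 66.9 CPM at 24 months and to 24.1, 46.0 and 25.5 CPM at 3 months. Pecam1 made up 36.1, 65.25 and 66.2 CPM of this at 24 months. Cldn5 was at 0, 14.9 and 0 CPM there. The 7 astrocyte markers summed to 345.8, 458.8 and 332.7 CPM at 24 months, against 128.5, 235.3 and 266.6 CPM at 3 months, without overlap. Most of this sum was Slc1a3, at 298.1, 383.7 and 284.9 CPM at 24 months and 110.1, 223.7 and 246.2 CPM at 3 months. Gja1 and Aldh1l1 had counts only in 24 month replicate 2, and Aqp4 only in 3 month replicate 3. The 8 neuron markers summed to 133.6, 61.6 and 33.4 CPM at 24 months and to 51.3, 13.96 and 35.1 CPM at 3 months. Camk2a made up 116.7, 38.2 and 23.35 CPM of this at 24 months and 44.6, 9.60 and 23.1 CPM at 3 months. Oligodendrocyte precursor markers stayed at 3.13 CPM or less in every library. Whether sums carried mostly by a single gene reflect such cells was not tested, nor was the part of such cells in the mitotic values.

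No member passed the test across all genes. EdgeR's quasi-likelihood test with Benjamini-Hochberg adjustment called 0 members of the 25 tested and 0 of 10663 genes (0% higher and 0% lower at 24 months); the smallest adjusted p of any gene was 0.410. At an unadjusted p under 0.05 there were 3 members higher (Cdc20, Ccnb2 and Top2a) and 1 lower (Cdk2), beside 3.52% of tested genes higher and 2.02% lower. DESeq2's Wald test on the same counts called 2 members, Cdc20 and Ccnb2, among 141 genes. With 0 and 1 counts over the 3 month libraries, Cdc20 and Ccnb2 passed the filter on low counts through the old libraries alone. They could enter these tests only as higher, which limits these counts of members. The authors' deposited table gives an adjusted p for 29 members and called 3 of them, all higher at 24 months, where it called 1.54% of genes higher and 0.472% lower. In the authors' deposited table the log2 change and its adjusted p were 10.32 ± 1.80 (SE) and 6.41e-06 for Cdc20, 9.13 ± 1.92 and 0.000394 for Ccnb2, and 5.94 ± 1.80 and 0.0482 for Kif11.

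Of the 34 members with a count in any library, 24 had a higher and 10 a lower mean at 24 months, beside 51.9% higher among 17433 genes with a count and 50.5% among tested genes. Bub1, a kinase of the spindle checkpoint, and Kif23, a motor of the cleavage furrow, had no count in any library. Among mitotic members 16 had a higher and 5 a lower mean, and among replication and G1/S members 8 had a higher and 5 a lower mean. The highest of the 6 libraries was 24 month replicate 1 for 16 members and 24 month replicate 2 for 7, where 19.7% and 18.0% of all genes with a count had their highest value. By contrast 3 month replicate 1 was highest for 2 members, against 20.7% of all genes with a count. It had at most 1 count for 20 of the 36 members. Among all tested genes that share was 15.9% there and 2.04% to 9.23% in the other libraries. The 36 include members that did not pass the filter on low counts, so the member count and these shares are not like for like. The ages did not overlap for 8 members. Cdc20, Ccnb2, Cdk1, Cenpf, Kif11, Prc1 and Mcm5, 7 in all, were higher in each 24 month library, as were 5.7% of genes with a count and 7.26% of tested genes. Cdk2 was lower in each of them, as were 4.25% of genes with a count and 6.18% of tested genes. With a library left out, fewer values have to be separated and more genes do not overlap: without 24 month replicate 1, 9 members were higher without overlap, beside 10.2% of genes with a count, and without 24 month replicate 3, 13 members were, beside 13.3%.

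**Figure D2:**
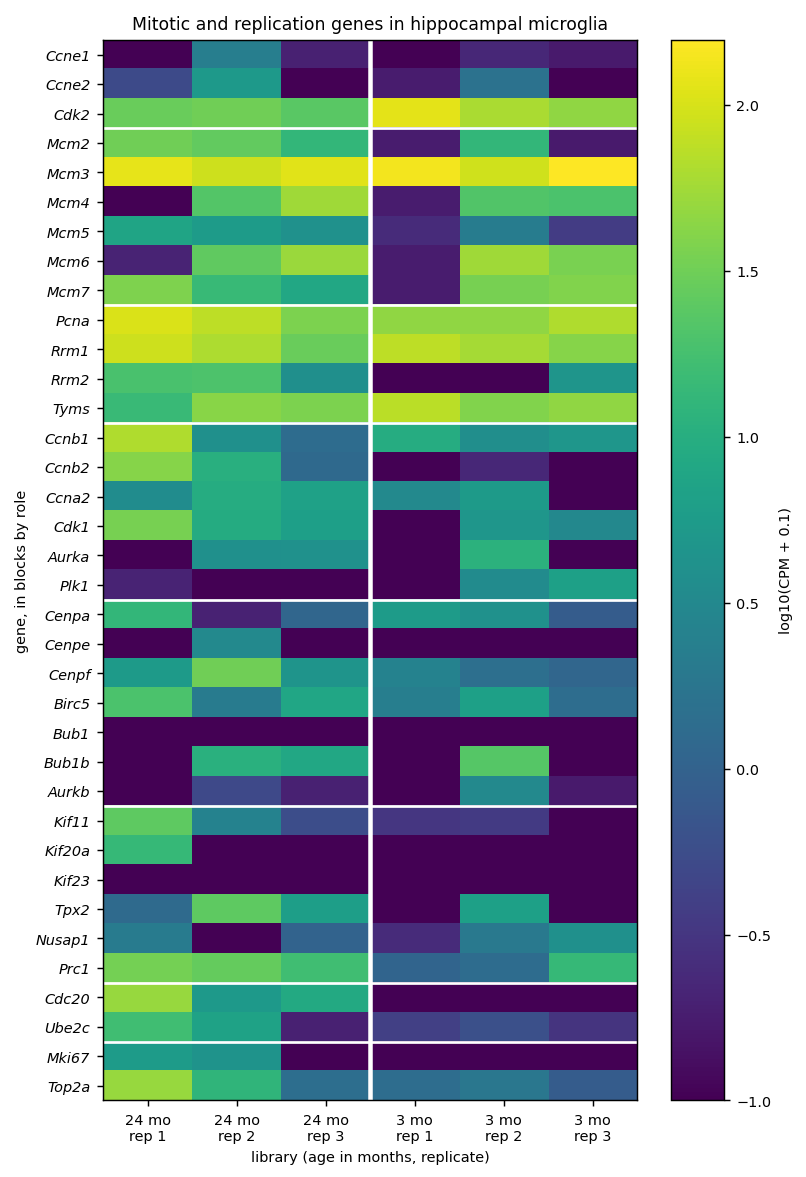
Level of each of the 36 members in the 6 microglia libraries, as log10(CPM + 0.1), in blocks by role, with 24 months left of 3 months. Mcm3, Pcna, Rrm1, Tyms and Cdk2 are bright in every library, and many mitotic members are dark in several. In 3 month replicates 1 and 3, 20 and 16 of the 36 members had at most 1 count. The shares of all tested genes were 15.9% and 2.54%, but these genes passed the filter on low counts, which some of the 36 did not.

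The promoters of these 8 members are shown because their groups did not overlap. Each stretch is the 170 bases before the RefSeq start site on GRCm38.p6, read 5′ to 3′ on the strand of the gene. Capitals mark 3 motifs, on either strand: the CCAAT box, bound by NF-Y; the cell cycle homology region TTTGAA (CHR), an element of genes of G2 and mitosis bound by the DREAM and B-Myb complexes; and the E2F site in its forms TTTCCCGC, TTTCGCGC, TTTGCCGC and TTTGGCGC. On the opposite strand the CCAAT box reads ATTGG and the CHR reads TTCAAA.
Cdc20, chr4:118437344-118437513, minus strand: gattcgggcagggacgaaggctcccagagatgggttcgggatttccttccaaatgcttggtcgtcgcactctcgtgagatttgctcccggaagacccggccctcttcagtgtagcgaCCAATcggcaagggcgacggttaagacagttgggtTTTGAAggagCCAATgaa
Ccnb2, chr9:70421555-70421724, minus strand: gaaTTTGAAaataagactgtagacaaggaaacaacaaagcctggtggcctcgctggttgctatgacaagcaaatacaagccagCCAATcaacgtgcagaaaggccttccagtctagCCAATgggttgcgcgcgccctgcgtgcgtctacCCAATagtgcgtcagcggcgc
Cdk1, chr10:69352913-69353082, minus strand: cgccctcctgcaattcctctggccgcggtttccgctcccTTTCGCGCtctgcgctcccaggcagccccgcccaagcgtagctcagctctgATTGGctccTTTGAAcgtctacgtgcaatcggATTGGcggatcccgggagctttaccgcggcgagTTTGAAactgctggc
Kif11, chr19:37376212-37376381, plus strand: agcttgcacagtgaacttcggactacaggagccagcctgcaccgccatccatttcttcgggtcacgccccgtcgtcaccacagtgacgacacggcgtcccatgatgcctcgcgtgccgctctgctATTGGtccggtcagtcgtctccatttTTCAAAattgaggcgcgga
Prc1, chr7:80294281-80294450, plus strand: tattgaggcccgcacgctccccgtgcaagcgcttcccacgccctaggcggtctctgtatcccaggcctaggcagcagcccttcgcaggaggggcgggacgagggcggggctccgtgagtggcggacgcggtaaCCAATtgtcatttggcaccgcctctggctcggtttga
Cenpf, chr1:189688087-189688256, minus strand: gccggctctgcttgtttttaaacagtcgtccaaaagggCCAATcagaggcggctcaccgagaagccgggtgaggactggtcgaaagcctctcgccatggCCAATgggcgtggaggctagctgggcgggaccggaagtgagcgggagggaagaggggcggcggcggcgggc
Mcm5, chr8:75109339-75109508, plus strand: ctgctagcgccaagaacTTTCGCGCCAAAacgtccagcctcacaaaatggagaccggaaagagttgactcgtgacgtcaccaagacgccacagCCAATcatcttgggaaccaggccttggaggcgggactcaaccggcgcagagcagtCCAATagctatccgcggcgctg
Cdk2, chr10:128705052-128705221, minus strand: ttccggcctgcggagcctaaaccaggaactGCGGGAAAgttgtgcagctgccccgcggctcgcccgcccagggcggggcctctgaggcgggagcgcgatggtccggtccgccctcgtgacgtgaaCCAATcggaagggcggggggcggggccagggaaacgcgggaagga

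All 8 stretches hold at least 1 CCAAT box, and the 170 bases of Cdc20, Ccnb2, Cdk1 and Kif11 also hold a CHR. In Cdc20 the CHR begins 18 bases and in Kif11 19 bases before the start site. Cdk1 has a CHR at 71 and at 15 bases before the start and an E2F site at 131 bases. In Ccnb2 a further CHR begins at base 5 after the start. The CHR of Cenpf begins at base 3 after the start, and that of Prc1 begins 5 bases before it and runs over it, so these 3 are not in capitals. Cdk2 and Mcm5 hold E2F sites, and in Mcm5 a pair of them on opposite strands overlaps and runs into a single stretch of capitals.

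Promoter sequences were found for 30 of the 36 members; Ccna2, Ccne2, Aurkb, Kif20a, Tpx2 and Mcm4 had none in the table. In the 300 bases from 250 before to 50 after the start, the CHR was found in 14 of 19 mitotic and 1 of 11 replication members, and in 20.2% of 27025 genes with a promoter. The E2F words were found in 5 of 11 replication members (Cdk2, Mcm3, Mcm5, Mcm6 and Mcm7) and 1 of 19 mitotic members (Cdk1), and in 2.6% of all genes. A CCAAT box was found in 26 of 30 members and in 41.1% of all genes. Different motifs overlapped in a single pair. A match describes the letters only and is not a bound site.

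Cdk2 and the E cyclins set off S phase. Cdk2, the kinase of cyclins E and A (chromosome 10, 128697939 to 128705031, GRCm38), stood at 28.9, 31.7 and 23.6 CPM in 24 month replicates 1, 2 and 3, against 116.7, 62.2 and 46.8 CPM in 3 month replicates 1, 2 and 3. The old libraries lay close together and below each young one. Its log2 change was -1.42 ± 0.47 (SE; edgeR's quasi-likelihood test, adjusted p = 0.782). Ccne1, cyclin E1, had 0, 22 and 1 counts at 24 months and 0, 1 and 1 at 3 months. Ccne2, cyclin E2, had 4, 52 and 0 counts at 24 months and 1, 12 and 0 at 3 months. Both cyclins were thus near 0 in most libraries and highest in 24 month replicate 2.

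Of the helicase subunits, Mcm3 was the most abundant and the steadiest. Mcm3 stood at 119.0, 88.8 and 111.6 CPM at 24 months and at 138.2, 93.4 and 157.0 CPM at 3 months, with overlapping groups (log2 change -0.28 ± 0.28, SE). Mcm5 (chromosome 8, 75109569 to 75128439) was low, with 7.30, 5.65 and 3.99 CPM at 24 months, against 0.149, 2.12 and 0.272 CPM at 3 months. Its old libraries all lay above the young ones (log2 change 2.74 ± 1.37, SE; edgeR, adjusted p = 0.958). Mcm2 had 31.9, 26.9 and 12.9 CPM at 24 months, and 0.0746, 13.1 and 0.0681 CPM at 3 months (log2 change 2.44 ± 1.88, SE). Its groups overlapped through 3 month replicate 2, the only young library with more than 1 count.

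The other 3 subunits were nearly missing from replicate 1 of one age or both. Mcm4 was at 0, 21.6 and 54.5 CPM at 24 months and at 0.0746, 21.2 and 19.2 CPM at 3 months. Mcm6 was at 0.106, 25.7 and 51.6 CPM at 24 months and at 0.0746, 55.4 and 35.3 CPM at 3 months. Mcm7 was at 37.9, 14.3 and 8.07 CPM at 24 months and at 0.0746, 34.8 and 38.5 CPM at 3 months. A subunit of the same ring could therefore have over 20 CPM in a library and at most 1 count in another of the same age. The 6 subunits together summed to 196.2, 182.9 and 242.6 CPM at 24 months and to 138.7, 219.9 and 250.4 CPM at 3 months. Mcm7 shares exon bases with Cops6 and Ap4m1, so reads from those bases are uncertain in origin. Cops6 was above Mcm7 in every library, at 110.1, 85.5 and 149.9 CPM at 24 months and at 175.6, 122.1 and 134.5 CPM at 3 months. Ap4m1 was at 2.22, 0.504 and 10.4 CPM at 24 months and at 0.523, 12.7 and 21.1 CPM at 3 months.

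Clamp and nucleotide genes were high at both ages. Pcna, the sliding clamp, had 104.8, 75.1 and 36.5 CPM at 24 months and 46.8, 45.6 and 66.0 CPM at 3 months (log2 change 0.45 ± 0.46, SE). Rrm1, the large subunit of ribonucleotide reductase, had 89.8, 63.8 and 29.5 CPM at 24 months and 75.4, 57.9 and 40.7 CPM at 3 months (log2 change 0.07 ± 0.50, SE). Tyms, thymidylate synthase, had 14.6, 41.9 and 36.8 CPM at 24 months and 73.0, 38.9 and 46.2 CPM at 3 months (log2 change -0.76 ± 0.57, SE). The groups of all 3 genes overlapped. Rrm2, the small subunit that is made in S phase, differed from its partner: it was at 19.2, 19.9 and 3.80 CPM at 24 months and at 0, 0 and 4.49 CPM at 3 months (log2 change 3.23 ± 2.19, SE; edgeR, adjusted p = 0.990). The 0 values of Rrm2 lay in 3 month replicates 1 and 2. Per length, mean levels at 24 and 3 months were 87.8 and 58.2 TPM for Pcna, 55.8 and 67.1 TPM for Mcm3 and 21.3 and 20.7 TPM for Rrm1.

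Among cyclins and kinases that carry the cell from S phase into mitosis, Ccnb2 and Cdk1 stood apart between the ages. Ccnb2, cyclin B2 (chromosome 9, 70407692 to 70421547), had 388, 101 and 12 counts in 24 month replicates 1, 2 and 3, against 0, 1 and 0 counts in 3 month replicates 1, 2 and 3. The levels were 41.1, 10.2 and 1.14 CPM at 24 months and 0, 0.125 and 0 CPM at 3 months. The 501 old and 1 young counts give a ratio of 605.1 with an exact 95% interval of 108.1 to 23950, which covers counting error only. Without 24 month replicate 1 the ratio was 199.5. The old libraries differed widely among themselves, and the lowest still lay above the young ones. Cdk1, the kinase of cyclins A and B (chromosome 10, 69335146 to 69352938), had 34.8, 9.18 and 6.27 CPM at 24 months, against 0, 4.74 and 3.00 CPM at 3 months. Its groups did not overlap, and the nearest libraries were at 6.27 and 4.74 CPM (log2 change 2.70 ± 1.77, SE; edgeR, adjusted p = 0.987).

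Ccnb1, cyclin B1, was at 65.6, 3.93 and 1.23 CPM at 24 months and at 9.48, 3.74 and 4.63 CPM at 3 months. A single old library was high and the other old ones lay at or below the young level, so the log2 change of 1.98 ± 1.501 (SE) was -1.21 without 24 month replicate 1. Ccna2, cyclin A2, was at 3.49, 9.48 and 6.74 CPM at 24 months and at 3.14, 5.49 and 0 CPM at 3 months (log2 change 1.19 ± 1.71, SE). Plk1, a kinase of mitotic entry, had its counts in young libraries, with 1, 0 and 0 counts at 24 months and 0, 27 and 96 counts at 3 months. Aurka, a centrosome kinase, had 0, 39 and 43 counts at 24 months and 0, 89 and 0 counts at 3 months. Plk1 and Aurka were thus at most at 1 count in 24 month replicate 1, the library with the most Ccnb1, Ccnb2 and Cdk1.

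The partners of the anaphase-promoting complex were both low in young microglia. Cdc20, the activator that lets the complex mark securin and cyclin B (chromosome 4, 118432901 to 118437352), had 480, 50 and 91 counts in 24 month replicates 1, 2 and 3, and 0 counts in each 3 month library. Its levels at 24 months were 50.8, 5.04 and 8.64 CPM. Their mean was at least 259-fold higher than 3 counts pooled across the young libraries would be. The bound was 82.3-fold when 24 month replicate 1 was left out. Elovl1, a fatty acid elongase gene which shares exon bases with Cdc20, was even across the libraries at 245.6, 166.9 and 247.6 CPM at 24 months and 212.1, 261.1 and 212.9 CPM at 3 months. Ube2c, the ubiquitin-conjugating enzyme of the complex, had 16.2, 6.86 and 0.0949 CPM at 24 months and 0.299, 0.499 and 0.204 CPM at 3 months. In Ube2c 24 month replicate 3 lay below the young libraries and the gene did not pass the filter on low counts.

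Genes of chromatin in dividing cells followed the same libraries. Top2a, the topoisomerase that untangles sister chromatids (chromosome 11, 98992943 to 99024189), had 50.1, 12.2 and 1.33 CPM at 24 months, against 1.27, 1.75 and 0.749 CPM at 3 months. In Top2a 24 month replicate 3 lay within the young range (log2 change 4.07 ± 1.502, SE; edgeR, adjusted p = 0.868). Mki67, which encodes the proliferation marker Ki-67, had 53, 43 and 0 counts at 24 months and 0 counts in each 3 month library. Set against 3 counts pooled across the young libraries, the mean of the old libraries was at least 39.9-fold higher. It was at least 26.1-fold higher when 24 month replicate 1 was left out, where all counts came from 24 month replicate 2. The old library with no Mki67 count had the lowest mitotic sum of its age.

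Centromere and checkpoint genes came next. Cenpf, a kinetochore protein of late G2 (chromosome 1, 189640606 to 189688086), had 5.40, 32.0 and 4.46 CPM at 24 months, against 2.54, 1.37 and 1.02 CPM at 3 months. The groups did not overlap and the highest library was 24 month replicate 2 (log2 change 3.08 ± 1.33, SE; edgeR, adjusted p = 0.898). Birc5, the survivin subunit of the chromosomal passenger complex, had 19.4, 2.02 and 7.79 CPM at 24 months and 2.24, 6.48 and 1.29 CPM at 3 months. Cenpa, the histone H3 variant of centromeres, had 13.1, 0.101 and 1.04 CPM at 24 months and 5.60, 3.99 and 0.749 CPM at 3 months, and its log2 change of 0.46 ± 1.68 (SE) was -2.57 without 24 month replicate 1. Both overlapped between the ages, with their highest value in 24 month replicate 1.

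Bub1b, the checkpoint protein BubR1, had 0, 104 and 85 counts at 24 months and 0, 181 and 0 counts at 3 months. Aurkb, the kinase of the passenger complex, had 0, 4 and 1 counts at 24 months and 0, 25 and 1 counts at 3 months. Cenpe, a kinetochore motor, had 31 counts in 24 month replicate 2 and 0 in every other library. These 3 genes had no count in 24 month replicate 1, where most mitotic members were highest.

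Motors and bundling proteins of the spindle followed. Prc1, which bundles microtubules of the spindle midzone (chromosome 7, 80294450 to 80316259), had 33.8, 27.3 and 16.4 CPM at 24 months, against 0.970, 1.25 and 13.8 CPM at 3 months. Its old libraries all lay above the young ones, 3 month replicate 3 being the nearest (log2 change 2.27 ± 1.27, SE; edgeR, adjusted p = 0.967). Kif11, the motor that pushes spindle poles apart (chromosome 19, 37376403 to 37421859), had 241, 25 and 5 counts at 24 months and 3, 2 and 0 counts at 3 months. Its levels were 25.5, 2.52 and 0.475 CPM at 24 months and 0.224, 0.249 and 0 CPM at 3 months, and it did not pass the filter on low counts. Groups of Kif11 did not overlap, but the lowest old library held 5 counts against 3 in the highest young one.

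Kif20a, a motor of cytokinesis, had 128 counts in 24 month replicate 1 and 0 in every other library. Tpx2, which activates Aurora A on the spindle, had 1.16, 25.3 and 6.08 CPM at 24 months and 0, 6.48 and 0 CPM at 3 months (log2 change 2.33 ± 2.37, SE). Nusap1, a microtubule stabilizer, had 2.01, 0 and 0.949 CPM at 24 months and 0.149, 1.87 and 3.95 CPM at 3 months (log2 change -1.01 ± 1.63, SE). Each of these 3 genes was highest in a different library. Among all members, 9 share at least 50 exon bases with another annotated gene, Prc1 with Rccd1 and Ube2c with Tnnc2 among them, and Ccnb1, Ccnb2, Tyms and Pcna have annotated pseudogene copies, so part of their reads is uncertain. Rccd1 was at 0.529, 3.83 and 1.99 CPM at 24 months and at 4.404, 8.48 and 3.40 CPM at 3 months, and Tnnc2 had no count in any library.

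**Figure D3:**
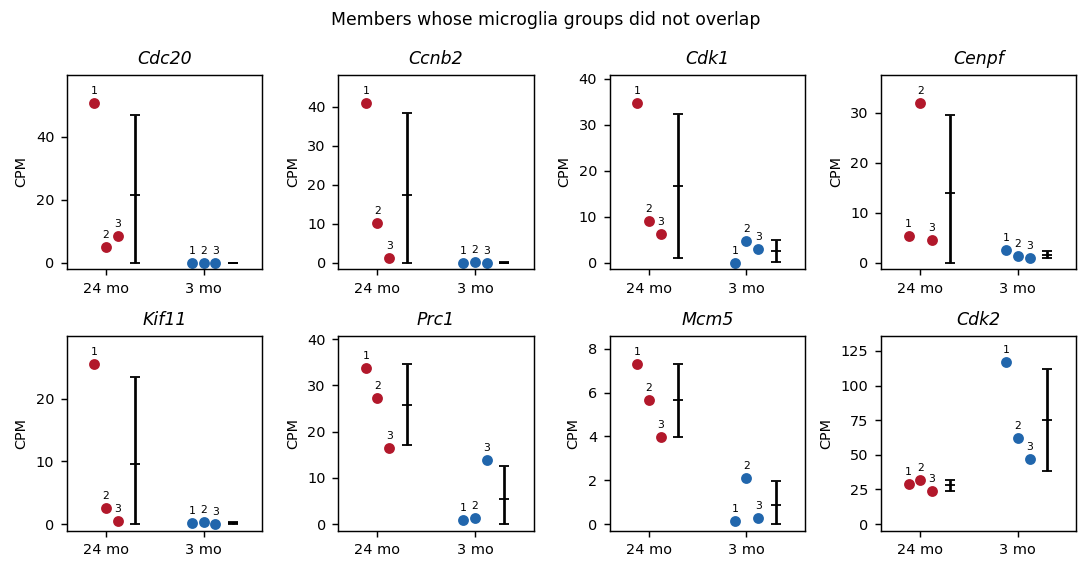
CPM of the 8 members whose microglia groups did not overlap, with 24 months (red) left of 3 months (blue); numbers give the replicate, and black marks show mean and SD with the lower bar ended at 0. The highest point is 24 month replicate 1 for Cdc20, Ccnb2, Cdk1, Kif11, Prc1 and Mcm5, 24 month replicate 2 for Cenpf and 3 month replicate 1 for Cdk2.

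The log2 changes of tested members had errors of up to 2.66 (SE), and their median was 1.19, beside 0.01 for all tested genes. Members with no reads in young libraries reach the test only when the old libraries are high, so this median covers 25 of 36 members and not the whole list. Errors were under 0.60 for 5 tested members, Cdk2, Mcm3, Pcna, Rrm1 and Tyms, all of the replication and G1/S group.

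**Figure D4:**
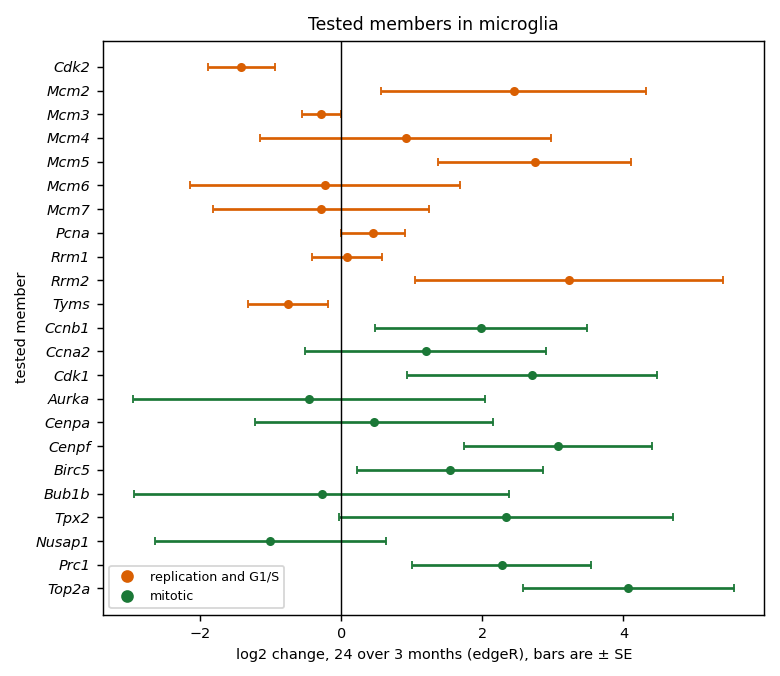
Log2 change of 24 over 3 months with its SE for 23 tested members in microglia; Cdc20 and Ccnb2, with 0 and 1 young counts, are not drawn. The SE of each mitotic member drawn is above 1, and Cdk2 at -1.42 ± 0.47 is the member with a narrow interval farthest from 0.

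Other genes of the same processes were read from lists that hold no member. In microglia 0 of 37 tested genes of a list of 44 other replication genes passed at an adjusted or an unadjusted p under 0.05; 25 of 43 with a count had a higher mean at 24 months and the median log2 change was 0.28. Rpa3, a subunit of the single-strand binding protein, was at 29.1, 12.7 and 19.2 CPM at 24 months, against 2.02, 6.23 and 11.6 CPM at 3 months. Rfc2, a subunit of the clamp loader, was at 20.3, 45.4 and 54.8 CPM at 24 months, against 70.7, 70.9 and 62.2 CPM at 3 months. Neither pair of groups overlapped, and the directions were opposite. Of the 43 with a count, 3 were higher and 2 lower without overlap, beside 5.7% and 4.25% of genes with a count.

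Of 49 other mitotic genes, 26 were tested and 0 passed an adjusted p under 0.05; 2 were higher at an unadjusted p under 0.05, and 33 of 45 with a count had a higher mean at 24 months. The shares over all genes were 3.52% at that p and 51.9% with a higher mean. The median log2 change of the 26 was 1.01. It covers only genes that passed the filter on low counts, and not the whole list. Incenp and Smc4, the 2 higher at that unadjusted p, passed the filter through the old libraries alone. They could enter the test only as higher, which limits this count and the median. In 6 of the 45 the old libraries all lay above the young ones and in 0 below, beside 5.7% and 4.25% of genes with a count. Incenp, the scaffold of the chromosomal passenger complex, was at 5.29, 21.0 and 7.69 CPM at 24 months and at 0 in each 3 month library (edgeR, adjusted p = 0.539). Smc4, a condensin subunit, was at 16.9, 28.5 and 1.71 CPM at 24 months, against 0.373, 0.374 and 0.749 CPM at 3 months (log2 change 4.94 ± 1.49, SE; edgeR, adjusted p = 0.663). Both genes were highest in 24 month replicate 2.

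Subunits and regulators of the anaphase-promoting complex were divided in direction. All 17 were tested, 0 passed at either p, and the mean was higher at 24 months for 7, beside 50.5% of tested genes; their median log2 change was -0.19. Fzr1, the Cdh1 activator that keeps the complex active in G1, was at 0.212, 12.8 and 9.97 CPM at 24 months, against 82.3, 21.7 and 35.6 CPM at 3 months (log2 change -2.60 ± 1.28, SE; edgeR, adjusted p = 0.958). Each old library lay below each young one. In this list 0 genes were higher and 1 lower without overlap, beside 5.7% and 4.25% of genes with a count. Among 26 cycle transcription factors, pocket proteins and G1 cyclins, 19 were tested and 0 passed at either p, with a median log2 change of 0.17. E2f7, a repressor of E2F targets, was at 9.32, 9.28 and 5.22 CPM at 24 months, against 0.448, 2.62 and 2.52 CPM at 3 months, without overlap. Rbl1, the pocket protein p107, was at 21.3, 21.3 and 28.1 CPM at 24 months, against 0, 6.23 and 8.99 CPM at 3 months, also without overlap. Lin52 went the other way, at 16.7, 27.8 and 12.8 CPM at 24 months, against 28.7, 35.5 and 40.85 CPM at 3 months. Of the 23 with a count in this list, 4 were higher and 1 lower without overlap, beside 5.7% and 4.25% of genes with a count. Foxm1, an activator of mitotic genes, was under 0.110 CPM in every library.

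Whole hippocampus was measured at other ages and on another scale, the authors' normalized counts, whose columns sum to 974372 to 1002839 per library. The table gives no counts, so the depth is unknown. A value above 0 was listed for 17, 19 and 22 of 27 members in 18 month replicates 1, 2 and 3, and for 20, 17 and 23 members in 6 month replicates 1, 2 and 3. In all 6 libraries 8 of the 27 members had a value above 0, beside 71.1% of all listed genes, and 17 members had a mean below 5 normalized counts. Limma's moderated test on log2(normalized count + 1) was run on 22 members and 13491 genes; it called 0 members and 0 genes (0% higher and 0% lower at 18 months), and the authors' deposited table called 0 of the 11 members with an adjusted p, where it called 0.118% of genes higher and 0.186% lower. The smallest adjusted p of limma over all genes was 0.155. At an unadjusted p under 0.05 limma had 1 member higher, Cenpe, and 0 lower, beside 2.13% of genes higher and 3.24% lower at 18 months. Genes were tested if they had at least 1 in at least 3 samples, which Cenpe reached through the 18 month libraries alone. It could enter this test only as higher, which limits this count.

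Replication genes made up most of the signal in hippocampus. The 13 replication and G1/S members summed to between 148.7 and 239.6 normalized counts at 18 months and between 163.8 and 184.8 at 6 months, with means of 196.1 ± 45.6 and 172.1 ± 11.2 (SD, n = 3 each) and overlapping groups. The 14 mitotic members summed to 65.8, 26.0 and 25.1 normalized counts at 18 months and to 42.0, 15.4 and 22.5 at 6 months, again overlapping. Of the 27 members 15 had a higher and 12 a lower mean at 18 months, beside 49.8% higher among listed genes and 50.3% among tested genes. Beside this, the 8 neural progenitor and neuroblast markers in the table summed to 173.9, 178.3 and 158.7 normalized counts at 18 months and to 115.2, 165.1 and 144.3 at 6 months, and the 7 oligodendrocyte precursor markers to 199.2, 260.1 and 234.4 at 18 months and to 305.6, 254.6 and 261.7 at 6 months. The 5 erythroid markers in the table were higher in each 18 month library, at 103.6, 324.0 and 221.6 against 57.5, 46.0 and 39.3 normalized counts at 6 months. Choroid plexus and ependyma markers ranged from 243.2 to 10757.5 at 18 months and from 124.2 to 6800.8 at 6 months. The part of these cells in the members' values was not tested.

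Pcna was the highest member, with 44.6, 60.1 and 77.4 normalized counts at 18 months and 51.9, 36.4 and 59.0 at 6 months. The groups overlapped, with a log2 change of 0.29 ± 0.34 (SE). Mcm6 had 17.8, 22.1 and 31.2 normalized counts at 18 months and 19.1, 21.5 and 15.2 at 6 months. Rrm1 had 39.5, 8.56 and 24.0 at 18 months and 28.0, 16.1 and 28.4 at 6 months. Ccne1, nearly absent from microglia, was listed at 8.95, 20.2 and 36.5 normalized counts at 18 months and at 14.1, 27.3 and 15.9 at 6 months. None of these 4 genes separated the ages.

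Groups did not overlap for 3 members, Cenpe and Mcm3 higher and Cenpf lower at 18 months, where 4.69% of listed genes were higher and 5.7% lower without overlap. Cenpe (chromosome 3, 135212537 to 135273611) was at 5.41, 2.49 and 4.67 normalized counts in 18 month replicates 1, 2 and 3 and was listed at 0 in each 6 month library (limma, adjusted p = 0.877). It reached the test through the 18 month libraries alone. Mcm3 (chromosome 1, 20802968 to 20820312) was at 14.5, 4.06 and 6.39 normalized counts at 18 months, against 0, 2.95 and 2.42 at 6 months (log2 change 1.81 ± 0.93, SE; limma, adjusted p = 0.909). These values are low, and those of Mcm3 nearly meet at 4.06 and 2.95. Cenpf was at 0, 1.85 and 0.574 normalized counts at 18 months, against 4.21, 5.93 and 4.64 at 6 months (log2 change -1.84 ± 0.87, SE; limma, adjusted p = 0.909).

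Of the 8 members that separated the ages in microglia, Cdc20, Cdk1 and Kif11 were not analysed in hippocampus, and Ccnb2, Cdk2, Prc1 and Mcm5 overlapped there. Ccnb2 was listed at 14.4 normalized counts in 18 month replicate 1 and at 0 in the other 5 libraries. Cdk2 was listed at 8.96, 0 and 3.88 normalized counts at 18 months and at 0 in each 6 month library. Mcm5 was at 0, 4.89 and 0 normalized counts at 18 months and at 2.09, 0 and 1.91 at 6 months. Top2a stayed between 0 and 1.52 and Mki67 between 0 and 2.49 normalized counts in all 6 libraries. Prc1 was at 16.2, 2.08 and 0 normalized counts at 18 months and at 19.1, 0.514 and 1 at 6 months, high in replicate 1 of both ages.

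**Figure D5:**
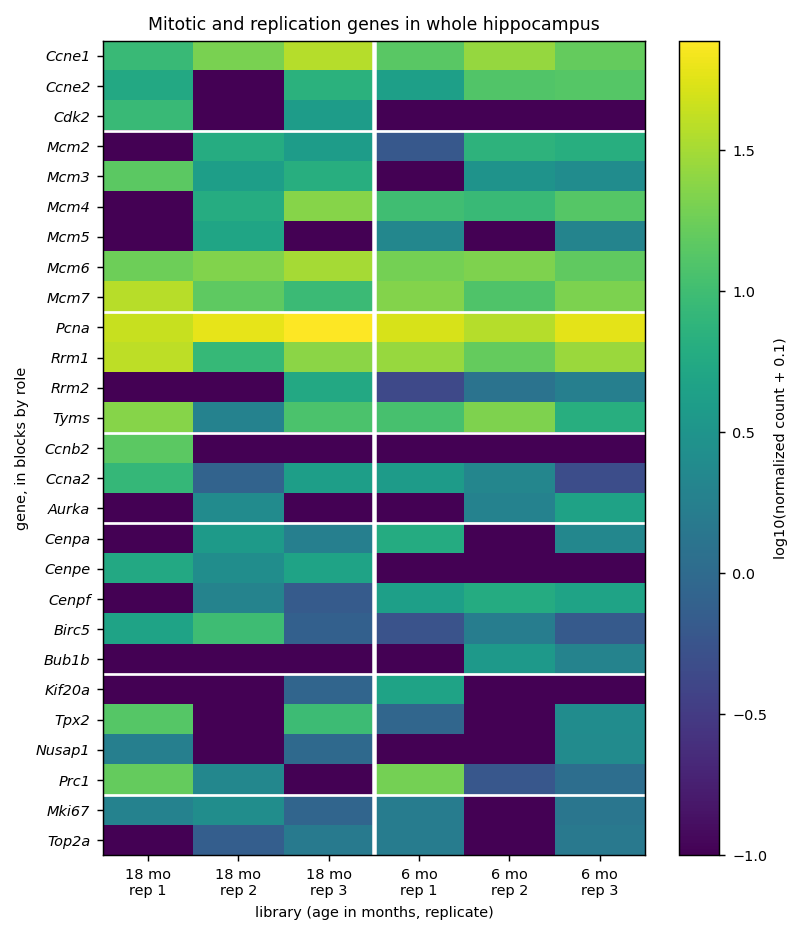
Level of the 27 members in the hippocampus table, as log10(normalized count + 0.1), in blocks by role, with 18 months left of 6 months. Pcna is bright in every library at 36.4 to 77.4 normalized counts, and most mitotic members are listed at 0 in at least 1 library.

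The same lists of other genes gave few differences in hippocampus. Limma called 0 genes of each list at an adjusted p under 0.05. Of 35 tested other replication genes, 1 was higher and 3 lower at an unadjusted p under 0.05, and of 21 tested other mitotic genes 0 were higher and 3 lower, beside 2.13% higher and 3.24% lower among all tested genes. Among those lower, the replication gene Cdc45 and the mitotic genes Incenp and Cdca8 were listed at 0 in each 18 month library. They reached the test through the 6 month libraries alone and could enter it only as lower, which limits these counts. Without overlap, 2 of 41 listed other replication genes were higher and 6 lower, and 1 of 29 listed other mitotic genes was higher and 3 lower, beside 4.69% and 5.7% of all listed genes. Cdc45, which completes the active helicase, was listed at 0 in each 18 month library and at 3.08, 5.65 and 5.33 normalized counts at 6 months (limma, adjusted p = 0.877). Orc2, a subunit of the origin recognition complex, was at 15.1, 13.96 and 41.8 normalized counts at 18 months, against 56.0, 57.8 and 42.2 at 6 months (log2 change -1.27 ± 0.48, SE; limma, adjusted p = 0.877). Tacc3, a spindle protein bound by Aurora A, was at 0, 0 and 2.43 normalized counts at 18 months, against 13.2, 11.8 and 7.58 at 6 months (log2 change -2.94 ± 0.90, SE; limma, adjusted p = 0.877). All 3 genes were lower in each 18 month library than in each 6 month library. Among the anaphase-promoting complex genes Fbxo5, the inhibitor Emi1, was at 3.11, 2.05 and 12.0 normalized counts at 18 months and was listed at 0 in each 6 month library. Fbxo5 thus reached the test through the 18 month libraries alone. Of the 17 genes in that list, 1 was higher and 1 lower without overlap, beside 4.69% and 5.7% of all listed genes.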

How the data were processed

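The members and gene lists were chosen with earlier results of these data known. Per the labels' protocols, nanogram amounts of total RNA were copied with an oligo-dT primer and template switching and then amplified by PCR; at such input, rare transcripts can be missed in a library, and how far this sets the values at 0 was not tested. Per the submitters' processing notes, kallisto, DESeq and DESeq2 were used, without versions, on builds GRCm39 and mm10, with no role given. For microglia the authors deposited gene-level estimated counts, TPM and a mean transcript length for each gene, per the file headers. For each tissue they deposited a table with normalized counts (a scaled signal), a log2 fold change, a Wald score and p-values, raw and adjusted. The authors' log2 values for hippocampus are 6 over 18 months, judged from their sample columns, and were not used for tests. Here every log2 change is older over younger.

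Estimated counts were rounded and tested with edgeR 4.0.16 (R 4.3.3; TMM, filterByExpr). Its SE was taken from the log2 change and the F statistic. The hippocampus values, which are not counts, were tested with limma 3.58.1 (mean trend) on log2(normalized count + 1) for genes with at least 1 in at least 3 samples; this understates changes of low genes. DESeq2 1.42.0 was an alternative. Benjamini-Hochberg adjustment covered all tested genes, tests were two-sided and the threshold was 0.05. The fits were tested on simulated data. Entries without a gene name held 0.0546% to 0.0771% of microglia counts and were left out. All per-sample columns matched a sample. Names of 2 microglia entries and 1 hippocampus entry that repeat another were kept apart. Members named with full values have at least 3 counts in at least 3 microglia libraries, groups that do not overlap, or an unadjusted p under 0.05 in hippocampus; others named were chosen after their values were seen. Other list genes are among the 4 with the smallest p of their list, except Foxm1 and the genes in the closing section. Gene positions are from GENCODE M21 (GRCm38). An exon overlap counts from 50 shared bases. Intervals and the floor of 3 counts describe counting error alone; reads copied by PCR are not independent molecules.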

Additional observations from a re-analysis of the deposited data

Results flagged for a closer look

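Cenpf was the member that separated the ages without overlap in opposite directions in the 2 tissues. Its log2 change was 3.08 in microglia (24 over 3 months), with all old libraries above the young ones, and -1.84 in hippocampus (18 over 6 months), with all 18 month libraries below the 6 month ones. Neither value passed its test, the ages compared differ, and the difference between the tissues was not tested.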

How the results depend on the processing

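In microglia, 0 members and 0 genes were called with DESeq2 size factors, no filter, a length offset, the replicate block or replicate 1 of both ages left out. DESeq2's Wald test called 2 members (Cdc20 and Ccnb2, which passed the filter through the old libraries alone) and 141 genes. Leaving out each replicate gave 0 members and 0 to 55 genes, the 55 without 24 month replicate 3. Hippocampus alternatives gave 0 members and 0 to 1 genes, the 1 without 6 month replicate 1. Whether libraries with the same replicate number share a batch or a pairing is not given in the sources used here. Their deviations were correlated at -0.00326 to 0.0924 in microglia and 0.00941 to 0.0142 in hippocampus. Only the microglia libraries numbered 1 were each other's best match, at 0.0924. Low correlations cannot decide whether libraries were paired.

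The alternatives for counts of members and for sums were chosen after seeing the data. The 7 and 1 members without overlap (higher and lower) became 7 to 13 and 1 to 3 with each library left out (13 without 24 month replicate 3, 11 without 3 month replicate 2), and 4 lower with replicate 1 of both ages left out. The same count over all genes with a count, 5.7% and 4.25%, became 8.76% to 13.3% higher and 6.37% to 9.62% lower with each library left out, and 13% lower with replicate 1 of both ages left out. The mitotic ratio of 4.46 ranged from 2.61 to 6.74, and was 2.13 with replicate 1 of both ages left out.

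Signs changed under some alternative for 9 of 25 tested members in microglia and 11 of 22 in hippocampus; the cause was not tested. With the length offset Nusap1 was at 0.14. With the replicate block Cenpa was at -0.57, Bub1b at 2.19, Aurka at 1.80 and Rrm1 at -0.022. With replicate 1 of both ages left out Ccnb1 was at -0.69, Cenpa at -2.02 and Rrm1 at -0.073. Leaving out each replicate, log2 changes in microglia ran from -1.21 to 2.53 for Ccnb1, -2.57 to 1.04 for Cenpa, -0.89 to 9.16 for Bub1b, -1.05 to 7.96 for Aurka, -1.25 to 0.54 for Mcm6, -0.32 to 0.38 for Rrm1, -0.35 to 1.49 for Mcm4 and -1.13 to 0.21 for Mcm7. Some values kept their sign and moved more: without 3 month replicate 2 Mcm2 went to 8.17 and Tpx2 to 9.97, without 3 month replicate 3 Rrm2 went to 10.19, without 24 month replicate 1 Top2a was at 2.42 and Ccnb2 at 6.96, and without 24 month replicate 2 Cenpf was at 1.57. In hippocampus log2 changes ran from -0.997 to 0.40 for Cenpa, -0.63 to 0.13 for Top2a, -1.25 to 0.38 for Mcm2, -2.12 to 0.18 for Mcm4, -0.73 to 0.22 for Mcm5, -0.37 to 0.36 for Rrm2, -0.41 to 0.54 for Ccne1, -1.16 to 1.11 for Prc1, -0.58 to 0.38 for Mcm7, -0.66 to 0.38 for Rrm1 and -1.09 to 0.46 for Tyms. A pseudocount of 5 gave 0.005 for Mcm5 and 0.083 for Rrm2.

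The SE of the log2 change was above 1 for each tested mitotic member in microglia; how much of this comes from depth was not tested.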

Other observations

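Cyclins and kinases of early G1, which respond to growth signals, differed in level in microglia, and none of those tested passed edgeR's test between the ages. Ccnd1, cyclin D1, averaged 98.1 ± 15.8 CPM in old and 106.9 ± 77.0 CPM in young microglia (SD, n = 3 each). Cdk4 averaged 128.9 ± 26.1 and 114.0 ± 21.8 CPM, and Cdk6 158.7 ± 29.0 and 197.2 ± 36.9 CPM, at 24 and 3 months. Their log2 changes were -0.13 ± 0.49, 0.18 ± 0.27 and -0.31 ± 0.24 (SE). Ccnd2 was at most at 1.14 CPM in microglia, while in whole hippocampus it was listed at 50.3 to 113.1 normalized counts at 18 months and 69.8 to 87.6 at 6 months. These genes were chosen after their values were seen.

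Incenp, not a member, separated the ages in opposite directions: it was at 5.29 to 21.0 CPM at 24 months and 0 at 3 months in microglia, and was listed at 0 at 18 months and at 2.57 to 7.51 normalized counts at 6 months in hippocampus. The difference between the tissues was not tested.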
